A study of Mus musculus with 6 samples.

Results

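Gata1, Gata2, Tal1, Lmo2, Lyl1, Klf1, Fli1, Nfe2, Gfi1b and Zfpm1 encode transcription factors and cofactors of red cell and platelet formation. They were taken by gene name from a count table of mouse leukemia cells, 10 of its 55421 genes, and all 10 were among the 18375 genes with enough counts to be tested. They are AML1-ETO9a (AE9a) leukemia cells, named for the short splice form of the AML1-ETO fusion protein, and were either AE9a-Ddit4+/+ (3 libraries) or AE9a-Ddit4-/- (3 libraries). The product of Ddit4 restrains mTOR under stress, and the comparison asked what its loss changes in these cells.

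Both groups were C57BL/6, and both were made by infecting c-Kit+ marrow cells of mice 6 to 8 weeks old with an AE9a retrovirus that also marks cells with GFP. The cells were recovered from the bone marrow of transplanted recipients that had developed leukemia and were kept in medium with serum. In this model AE9a is expressed from the virus, and no library of cells without AE9a was part of the comparison. Which part of Ddit4 the knockout allele lacks was not given, nor whether the libraries of a group came from separate leukemias. In the paper, fewer primary recipients of AE9a-Ddit4-/- cells developed leukemia than there are AE9a-Ddit4-/- libraries. If the libraries trace to that cohort, some of them share a primary leukemia. Here n therefore counts libraries, and p-values measure only the spread between them, which may be technical.

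GATA1 and GATA2 are zinc finger proteins that bind GATA sites. GATA2 acts in stem cells, progenitors and mast cells, and GATA1 takes over from it as erythroid cells and megakaryocytes mature. TAL1 or its relative LYL1 joins a GATA factor on DNA through the bridging protein LMO2. Among the others, KLF1 drives red cell genes, FLI1 and NFE2 drive megakaryocyte and platelet genes, GFI1B is a repressor needed in both lineages, and ZFPM1 (FOG1) is the partner through which GATA1 acts on many of its targets.

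In the AE9a-Ddit4-/- libraries Gata2 was 3.83-fold higher, whereas Klf1 was 58.6-fold lower, Lmo2 3.07-fold lower and Gfi1b 2.57-fold lower. The level of Gata1 itself, 140 ± 25.4 counts per library total of 1000000 (CPM, SD, n = 3) in AE9a-Ddit4+/+ and 133 ± 13.5 in AE9a-Ddit4-/-, did not pass the test. Of the 10 genes, 1 was higher and 3 were lower at an adjusted p below 0.05 (edgeR). Among all genes tested 30.1% passed, 19.4% as higher and 10.7% as lower. CPM did not overlap between the groups for 5 of the 10 genes, against 50.1% of all genes tested. The median log2 fold change was -0.02 over the 10 genes, 0.04 over all genes tested and -0.17 over the 8213 genes with an average log2 CPM above 4. In these bulk libraries, fewer cells of a type and less RNA per cell cannot be told apart.

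**Figure D1:**
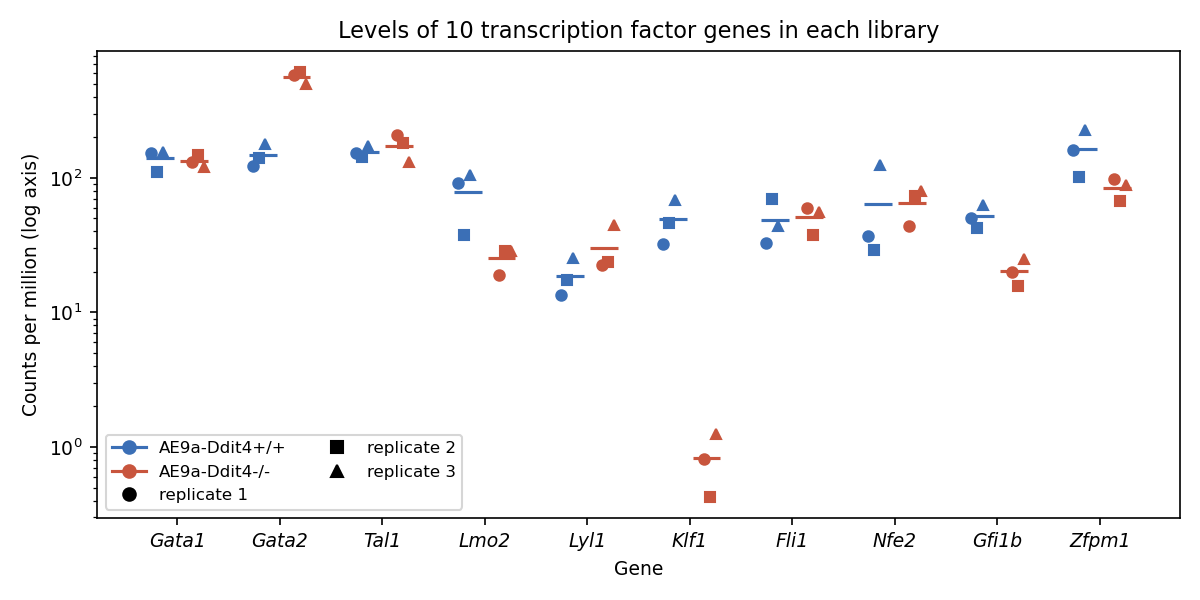
Level of each of the 10 genes in CPM (log axis) in the 3 AE9a-Ddit4+/+ libraries (blue) and the 3 AE9a-Ddit4-/- libraries (red), with symbols for replicate numbers and a line at each mean. Klf1 lay between 32.3 and 68.9 CPM in the former and between 0.428 and 1.25 in the latter, and Gata2 between 123 and 178 CPM in the former and between 500 and 612 in the latter.

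Some facts of the libraries bear on all these values. They held 62141558 to 72717681 counts each, and correlations of log2 CPM were 0.951 to 0.965 within groups and 0.791 to 0.846 between them. Ddit4 was at 161 to 341 CPM in AE9a-Ddit4+/+ and at 77.6 to 85.8 in AE9a-Ddit4-/-. Its RNA was thus lower in each knockout library but not absent. By western blot the paper found no DDIT4 protein in AE9a-Ddit4-/- leukemia cells. The groups also differed in sex, with Xist at 565 to 1030 against 20.3 to 129 CPM and the Y-linked gene Ddx3y at no more than 0.0773 against 88.2 to 125 CPM. Mitochondrial genes took 5.03% to 7.90% of counts in AE9a-Ddit4+/+ and 11.3% to 16.4% in AE9a-Ddit4-/-. As a check of the leukemia cell label, Ptprc (CD45) was at 108 and 578 CPM, Kit at 24.7 and 411 CPM and Cd34 at 5.92 and 519 CPM (group means, AE9a-Ddit4+/+ first), and all 3 genes rose. Of the 6 leukemia cell and progenitor genes listed, 5 were higher, while Spn (CD43) was at 227 and 143 CPM (log2 fold change -0.67, adjusted p = 0.0748). Spn passed as lower with library totals alone and also without AE9a-Ddit4+/+ replicate 2. Runx1t1, the mouse gene of the ETO part of the fusion, was at 6.47, 11.1 and 18.0 CPM in AE9a-Ddit4+/+ and at 206, 141 and 69.8 CPM in AE9a-Ddit4-/- (3.55, adjusted p = 0.00295). The groups thus differed in this gene too, and how far viral transcripts count towards it was not tested. Genes of T and NK cells (11 of 12 tested higher) and B cells (7 of 9) were also higher, with summed levels of 2.34 to 4.87 against 44.7 to 95.5 CPM for the former and 7.81 to 140 against 399 to 959 CPM for the latter. The T and NK cell count was 7 without AE9a-Ddit4-/- replicate 1, and only 2 of these genes, 1 of them higher, had at least 10 counts in every library. In every library most of the B cell sum was Ighm, at 58.5 ± 69.3 and 513 ± 326 CPM. Ighm itself did not pass by edgeR (log2 fold change 3.13, adjusted p = 0.0518), though it did in 6 of 14 other fits. Only 3 B cell genes had at least 10 counts in every library, and all 3 were higher in that fit. The part that sex, mitochondrial share or other cells have in the results below was not tested.

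The promoters of the genes with the clearest changes are shown as windows of 300 bases, from 250 bases before to 50 bases after the RefSeq start on GRCm38.p6, in the sense direction of the gene. Such a window was matched for 7 of the 10 genes, 9 windows in all. No window was matched for Lmo2, which also fell, or for Fli1 and Nfe2. Capitals mark GATA letters (AGATAA with AGATAG, and likewise TGATAA with TGATAG) and CCAAT on either strand, so that TTATCA is TGATAA and ATTGG is CCAAT read on the other strand. No match overlapped another. Klf1 (chr8:84901732-84902031, plus strand) and Gfi1b (chr2:28621933-28622232, minus strand), which fell, come first, and the alternative starts of Gata2 (chr6:88193641-88193940 and chr6:88198414-88198713, plus strand), which rose, follow.
Klf1: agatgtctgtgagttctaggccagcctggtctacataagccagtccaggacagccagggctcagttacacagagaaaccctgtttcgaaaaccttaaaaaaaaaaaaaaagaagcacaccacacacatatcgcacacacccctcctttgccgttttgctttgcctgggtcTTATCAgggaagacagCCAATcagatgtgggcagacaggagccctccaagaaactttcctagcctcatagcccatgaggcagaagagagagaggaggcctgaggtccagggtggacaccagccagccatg
Gfi1b: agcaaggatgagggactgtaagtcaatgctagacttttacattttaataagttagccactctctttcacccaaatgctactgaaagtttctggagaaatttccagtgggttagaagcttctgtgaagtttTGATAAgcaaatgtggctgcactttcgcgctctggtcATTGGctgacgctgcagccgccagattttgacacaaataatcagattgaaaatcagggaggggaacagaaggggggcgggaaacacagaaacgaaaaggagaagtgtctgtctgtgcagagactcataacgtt
Gata2, window 1: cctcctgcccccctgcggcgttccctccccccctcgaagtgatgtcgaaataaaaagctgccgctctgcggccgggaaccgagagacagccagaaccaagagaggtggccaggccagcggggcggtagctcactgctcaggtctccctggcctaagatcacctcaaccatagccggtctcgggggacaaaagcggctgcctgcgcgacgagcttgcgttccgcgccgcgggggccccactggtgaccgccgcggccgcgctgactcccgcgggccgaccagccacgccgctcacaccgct
Gata2, window 2: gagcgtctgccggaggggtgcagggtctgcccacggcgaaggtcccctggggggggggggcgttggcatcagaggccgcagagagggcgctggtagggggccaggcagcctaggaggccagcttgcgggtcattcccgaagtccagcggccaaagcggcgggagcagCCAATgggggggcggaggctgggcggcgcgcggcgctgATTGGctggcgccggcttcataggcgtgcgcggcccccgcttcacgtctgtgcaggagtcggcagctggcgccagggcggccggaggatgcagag

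The Klf1 window held TGATAA on its minus strand at bases 171 to 176, counted from 1 at the 5′ end, followed by CCAAT at bases 187 to 191. The Gfi1b window held the same letters at bases 131 to 136 and CCAAT on the other strand at bases 168 to 172. Neither Gata2 window held GATA letters, and the second held CCAAT on both strands. Of the remaining windows, the first of the pair for Tal1 held AGATAA on its minus strand, and those of Gata1, Lyl1 and Zfpm1 and the second of Tal1 held none of the letters searched. GATA letters were present in 29.8% and CCAAT in 37.4% of all 32851 windows of this length. These are matches of letters and no measure of binding.

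Gata1 (ENSMUSG00000031162, chrX:7959260-7978071, minus strand, GRCm38) was at 153, 111 and 156 CPM in AE9a-Ddit4+/+ and at 132, 147 and 120 CPM in AE9a-Ddit4-/-. The ranges overlapped. Its log2 fold change was -0.08 (SE 0.20, adjusted p = 0.803), and over 14 other ways of fitting the data it ran from -0.22 to 0.01. Between these groups of different sex, the median change of the other well-expressed genes (average log2 CPM above 4) on the X chromosome was -0.30. The change of Gata1 minus that median was 0.23. Of the autosomes, only chromosomes 5 (-0.44) and 4 (-0.32) had a lower median, and the highest was 0.39 (chromosome 15). Over all such genes the median was -0.17. The part of sex in the level of Gata1 was not tested. In level per length, Gata1 was first of the 10 genes in AE9a-Ddit4+/+ at 57.5 ± 10.4 CPM per kb of exon and second in AE9a-Ddit4-/- at 54.6 ± 5.53.

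Gata2 (ENSMUSG00000015053, chr6:88193891-88207032, plus strand) was at 123, 140 and 178 CPM in AE9a-Ddit4+/+ and at 579, 612 and 500 CPM in AE9a-Ddit4-/-. Every knockout library lay above every wild-type library. Gata2 rose by a log2 fold change of 1.94 (SE 0.21, adjusted p = 0.000869), and it passed the threshold in each of the 14 other fits, with values of 1.82 to 2.10.

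The balance of both GATA factors was read as the log2 ratio of Gata2 to Gata1 within each library, which does not depend on scaling. It was -0.32, 0.34 and 0.19 in AE9a-Ddit4+/+ and 2.13, 2.05 and 2.06 in AE9a-Ddit4-/-. In linear terms the geometric mean ratio was 1.05 in the former and 4.22 in the latter, without overlap. The difference of 2.01 had p = 0.1 in an exact two-sided permutation test, the smallest value that 3 against 3 libraries allow, and 0.167 after adjustment over the 5 ratios computed.

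Zfpm1 (ENSMUSG00000049577, chr8:122282141-122337251, plus strand), the GATA1 partner, was at 161, 102 and 225 CPM in AE9a-Ddit4+/+ and at 97.4, 67.4 and 88.0 CPM in AE9a-Ddit4-/-. The groups did not overlap, but the lowest wild-type library was close to the highest knockout library. The log2 fold change of -0.95 (SE 0.31) missed the threshold with an adjusted p of 0.0518. It passed in 4 of 14 other fits, among them the one without AE9a-Ddit4+/+ replicate 2 (-1.19, adjusted p = 0.0132), and was smallest without AE9a-Ddit4+/+ replicate 3 (-0.65).

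Tal1 (ENSMUSG00000028717, chr4:115056426-115071755, plus strand), the DNA-binding helix-loop-helix factor of the complex, was at 154, 143 and 172 CPM in AE9a-Ddit4+/+ and at 207, 181 and 131 CPM in AE9a-Ddit4-/-. The knockout libraries spanned the wild-type range, and the log2 fold change was 0.15 (SE 0.21, adjusted p = 0.638). Lyl1 (ENSMUSG00000034041, chr8:84701457-84704715, plus strand), its relative, was at 13.5, 17.4 and 25.5 CPM against 22.6, 23.6 and 44.7 CPM. The groups overlapped, with a log2 fold change of 0.69 (SE 0.37, adjusted p = 0.195) that dropped to 0.25 without AE9a-Ddit4-/- replicate 3. The log2 ratio of Lyl1 to Tal1 was -3.07 ± 0.37 in AE9a-Ddit4+/+ and -2.54 ± 0.87 in AE9a-Ddit4-/- (SD, n = 3, exact permutation p = 0.5, adjusted p = 0.5).

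Lmo2 (ENSMUSG00000032698, chr2:103957986-103981878, plus strand), which bridges TAL1 and the GATA factor, was at 91.6, 37.3 and 105 CPM in AE9a-Ddit4+/+ and at 18.9, 28.8 and 28.5 CPM in AE9a-Ddit4-/-. The groups did not overlap, though AE9a-Ddit4+/+ replicate 2 was much nearer to them than the others. Lmo2 fell by 1.62 on the log2 scale (SE 0.40, adjusted p = 0.0202). The call was less firm than those of Gata2, Klf1 and Gfi1b. The adjusted p rose to 0.0613 without AE9a-Ddit4+/+ replicate 1 (log2 fold change -1.49), 0.0669 without AE9a-Ddit4+/+ replicate 3 (-1.35), 0.0731 without AE9a-Ddit4-/- replicate 1 (-1.44) and 0.0528 without AE9a-Ddit4-/- replicate 3 (-1.75).

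Klf1 (ENSMUSG00000054191, chr8:84901928-84905291, plus strand) had 2040, 3125 and 4454 counts in the AE9a-Ddit4+/+ libraries and 51, 26 and 92 counts in the AE9a-Ddit4-/- libraries. In CPM these were 32.3, 46.0 and 68.9 against 0.819, 0.428 and 1.25. The groups were far apart, and the knockout counts were above the limit of detection, set at 12 counts (0.163 to 0.197 CPM). Klf1 fell by 5.87 on the log2 scale (SE 0.52, adjusted p = 0.000527), by far the largest change among the 10 genes in the main fit, and its value stayed between -6.35 and -5.55 in the 14 other fits, all past the threshold.

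Gfi1b (ENSMUSG00000026815, chr2:28609450-28621982, minus strand) was at 49.9, 42.3 and 63.3 CPM in AE9a-Ddit4+/+ and at 19.9, 15.6 and 25.1 CPM in AE9a-Ddit4-/-. The ranges were separate. Gfi1b fell by 1.36 on the log2 scale (SE 0.26, adjusted p = 0.00799), with values of -1.60 to -1.19 and a call in each of the 14 other fits. Its relative Gfi1, a repressor of myeloid cells, was at 6.61 ± 5.21 and 10.6 ± 6.24 CPM (log2 fold change 0.67, adjusted p = 0.480). The log2 ratio of Gfi1b to Gfi1 was 3.70, 1.70 and 3.87 in AE9a-Ddit4+/+ and 0.22, 1.67 and 1.27 in AE9a-Ddit4-/-. The ratios of the groups nearly touched at replicate 2 of each (exact permutation p = 0.1, adjusted p = 0.167).

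Fli1 (ENSMUSG00000016087, chr9:32422204-32542861, minus strand), an ETS factor, was at 33.0, 70.2 and 43.8 CPM in AE9a-Ddit4+/+ and at 60.0, 37.5 and 55.7 CPM in AE9a-Ddit4-/-. The libraries of both groups were interleaved, and the log2 fold change was 0.06 (SE 0.32, adjusted p = 0.903). FLI1 and KLF1 are known to oppose each other in the choice between the megakaryocyte and the red cell lineage. The log2 ratio of Fli1 to Klf1 was 0.03, 0.60 and -0.65 in AE9a-Ddit4+/+ and 5.52, 5.36 and 5.0 in AE9a-Ddit4-/-. In linear terms the geometric mean was 0.997 against 39.2. The 0.5 CPM added to each gene lowers the latter, as Klf1 was at 0.428 to 1.25 CPM there. With 0.1 CPM added the log2 difference between the groups was 5.86 in place of 5.30. The groups were separated by more than 4 units on the log2 scale (exact permutation p = 0.1, adjusted p = 0.167). Klf1 fell in this pair, and Fli1 overlapped between the groups.

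Nfe2 (ENSMUSG00000058794, chr15:103248212-103258403, minus strand), the large subunit of a bZIP factor of platelet formation, was at 36.8, 29.2 and 125 CPM in AE9a-Ddit4+/+ and at 43.9, 72.9 and 79.3 CPM in AE9a-Ddit4-/-. AE9a-Ddit4+/+ replicate 3 stood far above the other wild-type libraries, and the SE of 0.55 was the largest of the 10 genes. The log2 fold change of 0.04 (adjusted p = 0.966) became 0.98 without that library, still short of the threshold. For the other well-expressed genes of chromosome 15 the median change was 0.40, and Nfe2 minus that median was -0.36.

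**Figure D2:**
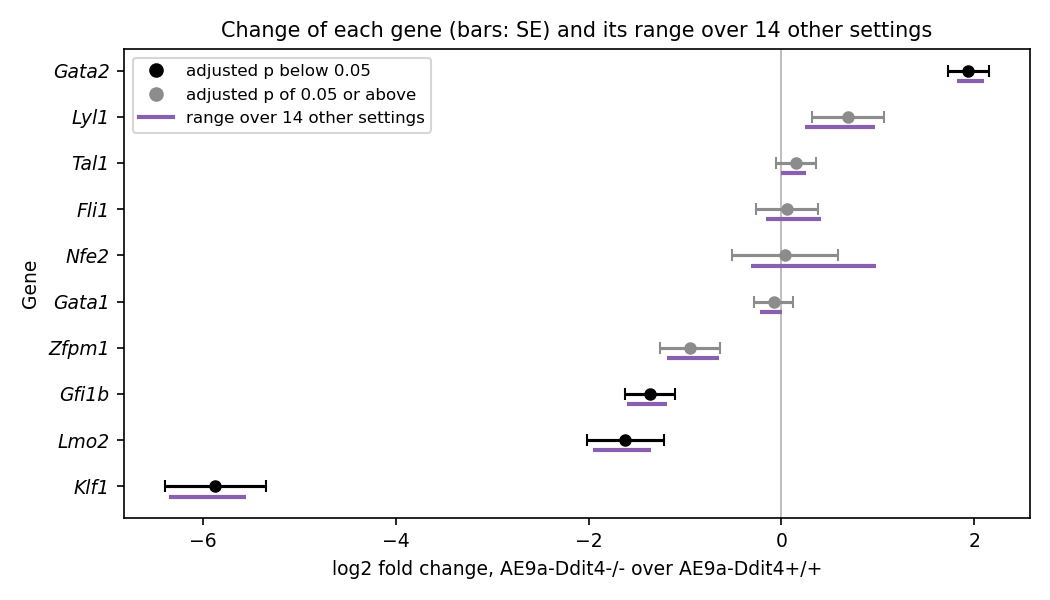
Log2 fold change of each gene, AE9a-Ddit4-/- over AE9a-Ddit4+/+ (points, bars are SE, black where the adjusted p is below 0.05), with the range of its value over 14 other fits in purple. Gata2 at 1.94 and Klf1 at -5.87 lie at the ends, and the range of Nfe2 reaches from -0.31 to 0.98.

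The spread among wild-type libraries was wide for these genes. Their median coefficient of variation was 35.0% in AE9a-Ddit4+/+ and 22.8% in AE9a-Ddit4-/-, against 19.6% and 18.6% for the 8213 genes with an average log2 CPM above 4. AE9a-Ddit4+/+ replicate 3 held the highest wild-type level of 9 of the 10 genes, all but Fli1. The lowest wild-type level was in replicate 2 for 6 genes and in replicate 1 for the other 4. No knockout library stood out in this way, with the highest level of 3, 3 and 4 genes in replicates 1, 2 and 3.

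Ordered by CPM per kb of exon, the genes of AE9a-Ddit4+/+ ran from Gata1 (57.5) through Zfpm1 (46.4), Lmo2 (36.0), Tal1 (35.7), Klf1 (32.1), Gfi1b (28.3), Gata2 (27.3), Nfe2 (21.3) and Fli1 (14.1) to Lyl1 (10.4). Each gene overlapped the next in this order. In AE9a-Ddit4-/- Gata2 stood first at 104 ± 10.6, apart from Gata1 at 54.6, which was apart from Tal1 at 39.5 and this from Zfpm1 at 24.1. Nfe2, Lyl1, Fli1, Lmo2 and Gfi1b followed, from 21.9 down to 11.0, and each overlapped its neighbour. Klf1 was last and apart at 0.544 ± 0.269.

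**Figure D3:**
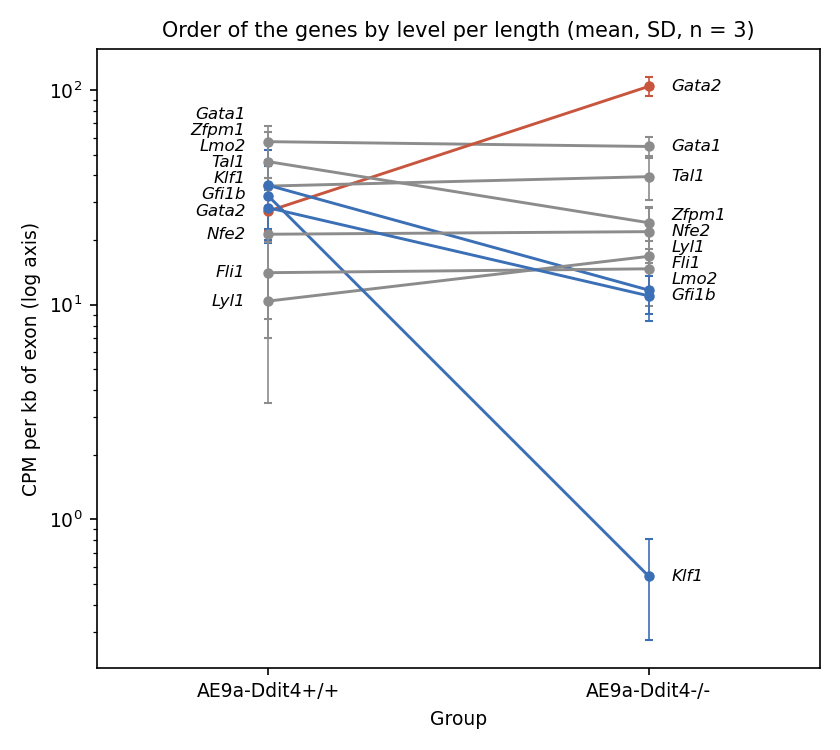
Mean level per length (CPM per kb of exon, log axis, bars are SD over 3 libraries) of the 10 genes in each group, with lines in red for the gene that rose, blue for those that fell and gray for those that did not pass. Gata2 moved from 27.3 to 104 and Klf1 from 32.1 to 0.544, while Gata1 was at 57.5 and 54.6.

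**Figure D4:**
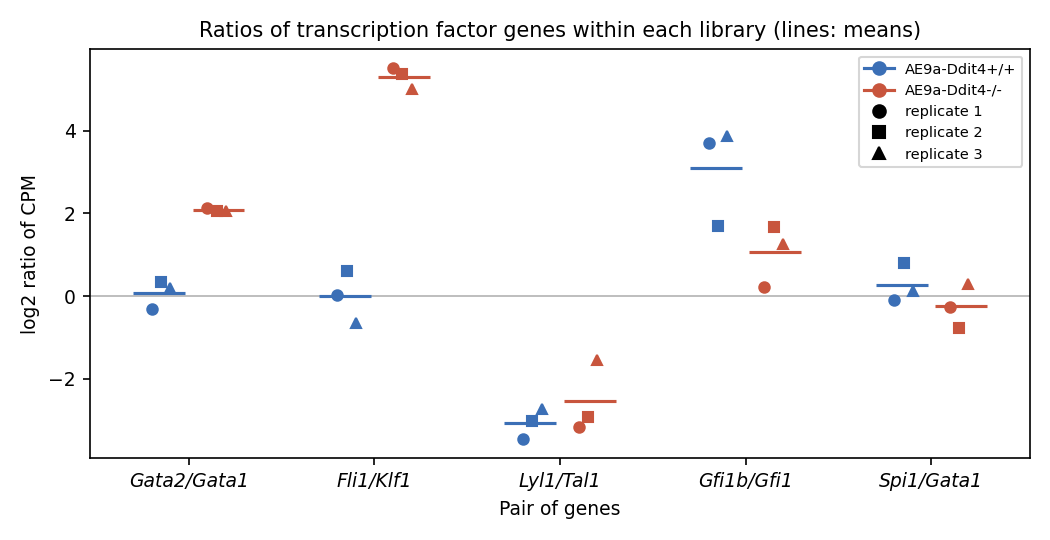
Log2 ratio of CPM (0.5 CPM added to each gene) of 5 pairs of transcription factor genes within each library, with a line at each group mean, AE9a-Ddit4+/+ in blue and AE9a-Ddit4-/- in red. Gata2/Gata1 and Fli1/Klf1 are far apart between the groups, whereas Lyl1/Tal1 and Spi1/Gata1 overlap.

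Among 21 partners and cofactors with which these factors assemble, 3 were higher (14.3%) and 2 lower (9.52%). Both shares lay under those of all genes tested, 19.4% higher and 10.7% lower. The median log2 fold change was -0.09. The highest CPM was that of Ldb1, the dimerizing protein of the GATA, TAL1 and LMO2 complex, at 426 ± 105 and 471 ± 145 CPM (log2 fold change 0.15, adjusted p = 0.722). The LDB1-stabilizing proteins moved in opposite directions, with Ssbp2 rising from 8.37 ± 6.07 to 53.9 ± 0.438 CPM (2.69, adjusted p = 0.0121) and Ssbp3 falling from 115 ± 41.3 to 39.1 ± 7.19 CPM (-1.56, adjusted p = 0.00810). The E proteins, which pair with TAL1 and LYL1, also differed. Tcf4 rose from 4.10 ± 2.64 to 59.1 ± 13.0 CPM (3.85, adjusted p = 0.00281) and Tcf12 was lower at 129 ± 8.59 and 89.8 ± 4.20 CPM (-0.53, adjusted p = 0.0425), whereas Tcf3 missed the threshold (-0.54, adjusted p = 0.0666). Ep300, a histone acetyltransferase, rose from 144 ± 26.5 to 257 ± 26.3 CPM (0.83, adjusted p = 0.0178). The calls of Tcf4, Ssbp2 and Ssbp3 held in all 14 other fits, that of Ep300 in 10 and that of Tcf12 in 5. The call of Ep300 was lost without AE9a-Ddit4+/+ replicate 1 or 3 (adjusted p = 0.0512 and 0.0653) or AE9a-Ddit4-/- replicate 1 (0.0555). That of Tcf12 was lost without any 1 of the libraries but AE9a-Ddit4+/+ replicate 2, with adjusted p up to 0.133 without AE9a-Ddit4+/+ replicate 3.

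Of 26 family relatives 21 were tested, 4 were higher (19.0%) and 0 lower by edgeR, with a median of -0.08. The shares of all genes tested were 19.4% higher and 10.7% lower. Of the relatives, 2 were lower at an unadjusted p below 0.05, 1 with DESeq2 and 0 with limma-voom. The count of higher genes was 2 without AE9a-Ddit4+/+ replicate 3 or without any 1 of the AE9a-Ddit4-/- libraries. The largest change was that of Erg, an ETS factor close to Fli1, at 1.73 ± 0.431 CPM in AE9a-Ddit4+/+ and 99.7 ± 19.0 CPM in AE9a-Ddit4-/- (log2 fold change 5.84, SE 0.31, adjusted p = 0.000129). Every knockout library lay far above the wild-type libraries for Erg, unlike for Fli1. Bach1, a repressor that shares small Maf partners with NFE2, rose from 86.8 ± 17.2 to 220 ± 58.0 CPM (1.34, adjusted p = 0.00839). Ets2 was at 25.4 ± 9.50 and 55.9 ± 9.59 CPM (1.14, adjusted p = 0.0271). Erg, Bach1 and Ets2 all lie on chromosome 16, where the median change of 261 genes was 0.25. The calls of Erg and Bach1 held in all 14 other fits. That of Ets2 was lost without any 1 of the libraries but AE9a-Ddit4+/+ replicate 2, and that of Elf1 (0.71, adjusted p = 0.0335) without any 1 but AE9a-Ddit4+/+ replicate 1, both most so without AE9a-Ddit4+/+ replicate 3 (adjusted p = 0.0914 and 0.119). Klf6, with the highest CPM of the relatives, was at 1180 ± 313 and 896 ± 259 CPM (-0.40, adjusted p = 0.312). Spi1 (PU.1), a myeloid factor that opposes GATA1, was at 169 ± 24.1 and 115 ± 30.9 CPM (-0.56, adjusted p = 0.116), and its log2 ratio to Gata1 was 0.28 ± 0.46 and -0.24 ± 0.53 (exact permutation p = 0.3, adjusted p = 0.375). Gata4, Lmo3 and Zfpm2 had 0 counts in all 6 libraries.

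Red cell genes, many of them known targets of KLF1, were mostly lower as well. Of 24 tested, 20 were lower and 0 higher by edgeR (0 higher also at an unadjusted p below 0.05, and with DESeq2 or limma-voom), with a median log2 fold change of -4.75, and 19 or 20 were lower in each of the 14 other fits. Their summed level was 9060 to 18300 CPM in AE9a-Ddit4+/+ and 589 to 1160 CPM in AE9a-Ddit4-/-. The beta globin Hbb-bs, with the highest CPM of the list, fell from 3460 ± 817 to 129 ± 90.5 CPM (-4.75, adjusted p = 0.00212). Fech, the last enzyme of heme synthesis, fell from 261 ± 50.9 to 31.3 ± 3.19 CPM (-3.06, adjusted p = 0.000265), Cpox, an earlier one, from 259 ± 122 to 8.37 ± 0.652 CPM (-4.95, adjusted p = 0.000502), and the erythropoietin receptor Epor from 83.7 ± 14.2 to 8.33 ± 2.55 CPM (-3.33, adjusted p = 0.000580). The other 4 genes, Slc4a1, Hemgn, Tfrc and Aqp1, did not pass, with values of -0.16, -0.91, -0.01 and -0.20. Within AE9a-Ddit4+/+ the order of libraries was not that of Klf1, since replicate 1 had the lowest Klf1 level and the highest red cell sum.

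Megakaryocyte and platelet genes went mostly the other way, with 11 of 18 tested higher, 1 lower and a median of 4.40. Genes that passed the filter on low counts only through the knockout libraries weigh in this median, and among the 13 with at least 10 counts in every library 6 were higher and the median was 0.81. The summed level of the list was 302 to 575 CPM in AE9a-Ddit4+/+ and 2780 to 3620 CPM in AE9a-Ddit4-/-. The platelet glycoprotein Gp1bb rose from 0.267 ± 0.0744 to 48.5 ± 15.1 CPM (7.50, adjusted p = 0.000146), and Itga2b (CD41), with the highest CPM of the list, from 116 ± 28.9 to 2020 ± 279 CPM (4.13, adjusted p = 0.000195). Vwf, which platelets and endothelium store, was the one that fell, from 7.16 ± 2.66 to 1.71 ± 0.943 CPM (-2.06, adjusted p = 0.0327). Its call was lost without any 1 of the libraries but AE9a-Ddit4+/+ replicate 2, with adjusted p up to 0.104 without AE9a-Ddit4+/+ replicate 3. Fli1 and Nfe2, which act on such genes, overlapped between the same groups.

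Gata2 and Erg are also used by other cells, whose markers are given here. Of mast cell, basophil and eosinophil genes, 5 of 10 tested were higher and 0 lower by edgeR (0 lower also at an unadjusted p below 0.05, and with DESeq2 or limma-voom), with sums of 113 to 137 against 682 to 1240 CPM. Most of the AE9a-Ddit4-/- sum was Cpa3, a protease of mast cells and their progenitors, which rose from 2.47 ± 1.38 to 770 ± 280 CPM (8.28, adjusted p = 0.000285). The mast cell chymase Cma1 also rose, from 0.628 ± 0.238 to 8.87 ± 4.44 CPM (3.82, adjusted p = 0.00274, past the threshold in 14 of 14 other fits). The mast cell tryptase Tpsab1 had 0 counts in every library. The number of higher genes was 3 without AE9a-Ddit4+/+ replicate 1 and 3 without AE9a-Ddit4-/- replicate 3. Of endothelial genes, 10 of 12 were higher and 1 lower, with sums of 54.0 to 129 against 545 to 635 CPM. With at least 10 counts in every library, 4 of 6 endothelial genes and 3 of 7 mast cell, basophil and eosinophil genes were higher. Tie1 rose from 0.175 ± 0.167 to 181 ± 28.0 CPM and Pecam1 from 3.64 ± 1.53 to 137 ± 11.8 CPM, and both are also made by blood progenitors. The more restricted Cdh5 rose from 0.423 ± 0.162 to 6.74 ± 2.66 CPM (3.99, adjusted p = 0.00212). Tek was at 0.0853 and 24.5 CPM, higher by at least 7.06 on the log2 scale against 12 counts per library (adjusted p = 0.000987). Plvap was the one that fell, from 19.9 ± 10.6 to 5.63 ± 3.22 CPM (-1.82, adjusted p = 0.0457, past the threshold in 8 of 14 other fits). Emcn and Sox17, with too few counts to be tested, were at 0.347 and 0.187 CPM in AE9a-Ddit4-/- and 0 in AE9a-Ddit4+/+. Neutrophil genes were lower in 5 of 14, and none of these calls held without AE9a-Ddit4+/+ replicate 1 or without AE9a-Ddit4-/- replicate 1, and 1 was made without AE9a-Ddit4+/+ replicate 2 or 3. The part of such cells in the levels of Gata2 and Erg was not tested.

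**Figure D5:**
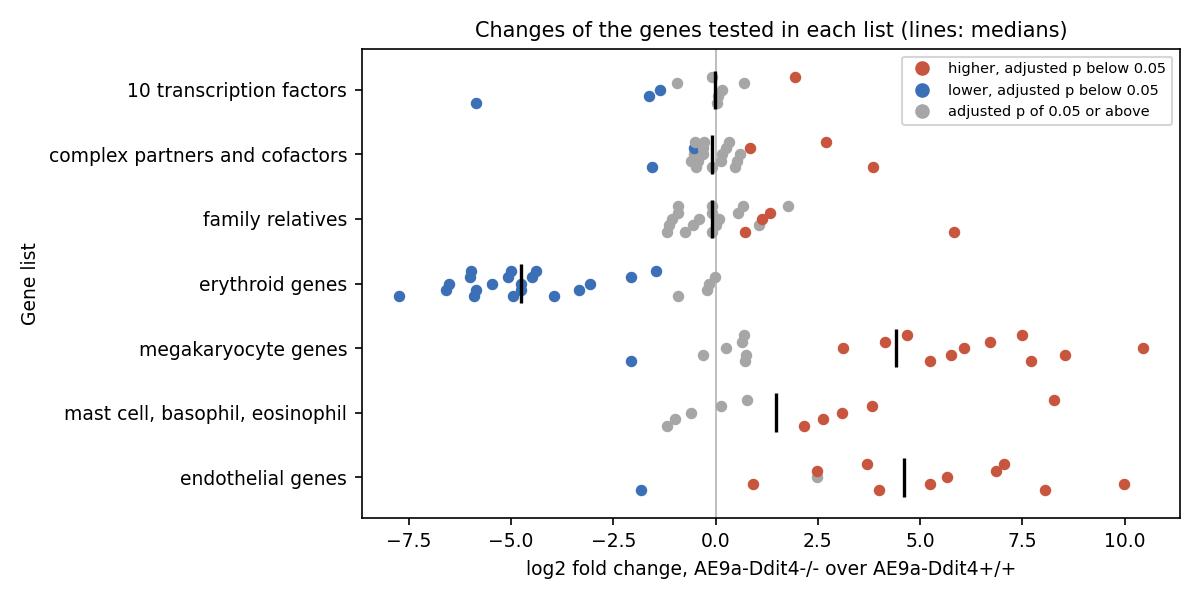
Log2 fold change, AE9a-Ddit4-/- over AE9a-Ddit4+/+, of each gene tested in 7 lists (points, red higher, blue lower, gray not past an adjusted p of 0.05), with a line at each list's median and lower bounds for genes at or under 12 counts in every wild-type library. Red cell genes center on -4.75 and megakaryocyte genes on 4.40, while the 10 transcription factors center on -0.02. Where no library was under 10 counts, these medians were -4.68 for red cell and 0.81 for megakaryocyte genes.

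The genes whose pattern over the 6 libraries was most like that of a factor were found by the root mean square difference of centered log2 CPM among 8214 genes. For Klf1 they were Homer1 (0.312), Tspan33 (0.358) and the red cell gene Trim10 (0.363), so even the nearest differed more from Klf1 than those of Gata2 or Gfi1b did from them. For Gata2 they were Plcb2 (0.0944), Lat2 (0.126) and Gprasp1 (0.150), and for Gfi1b Mtmr4 (0.0798), Mns1 (0.118) and Ddb2 (0.138). Lmo2 was nearest to Pdap1 (0.151), Psme3 (0.202) and Mrpl52 (0.206). Of all 10 factors Nfe2 had the most distant first match, Snhg15 at 0.355, and Fli1 the closest, Aldh3a2 at 0.0446.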

How the data were processed

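The authors sequenced paired reads of 150 bp and deposited 1 table of raw counts per gene, whole numbers with 1 column per library. The genome build is GRCm38 (mm10) per the submitters' processing notes. The aligner, counter and use of strand are not given in the sources used here, and the labels name an mRNA kit and the methods a directional one for RNA depleted of rRNA. Values of 4, 8 and 12 outnumbered 2, 6 and 10 by 1.40 to 1.62 times, so some fragments may have been counted more than once, and limits of detection, set at 12 counts per library, cover counting error only. Without stated strand use, reads of Lmo2 and 4931422A03Rik (1.31 and 1.19 CPM) and of Lyl1 and Nfix (21.2 and 17.8 CPM), which overlap on opposite strands, cannot be told apart, and the split of shared reads with smaller genes inside Fli1 is not known.

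Counts were tested in R 4.3.3 with the robust quasi-likelihood F-test of edgeR 4.0.16, filterByExpr and TMM factors (0.921 to 1.05), with genotype as the only term. P-values were adjusted over 18375 genes by the Benjamini-Hochberg method, with a threshold of 0.05. CPM use TMM-scaled totals, SE is the absolute log2 fold change over the square root of F, and ratios had 0.5 CPM added. Positions and exon lengths are from GENCODE M21, and promoter windows from RefSeq. Alternatives were other scalings and filters, DESeq2 1.42.0, limma-voom 3.58.1, counts divided by 4, a replicate block and leaving out each library. Scripts were tested on simulated data.

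The 10 genes, the lists and the tests were chosen with earlier results of these data known. Named are the 10 genes, the gene of highest CPM in each list and up to 3 per direction with the lowest adjusted p, the nearest tested coding genes on each side, overlapping genes and the 3 genes of most similar pattern, where shown. Tcf12, Tcf3, Ep300, Elf1, Spi1, Gfi1, Cdh5 and the list genes named for not passing or for being near 0 were added after their values were seen. Ahsp, on the red cell list, was not analysed here. A further gene that the naming rule selects is not reported here.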

Additional observations from a re-analysis of the deposited data

How the results depend on the processing

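Gata2, Klf1 and Gfi1b kept their direction and their call in all 14 alternatives. Lmo2 kept its direction but not its call under 5, with the replicate block (-1.52, adjusted p = 0.0745) and without each of the 4 libraries named above. Zfpm1 passed with library totals alone (-1.0, adjusted p = 0.0470), DESeq2 (-0.94, adjusted p = 0.0356), counts divided by 4 (-0.93, adjusted p = 0.0452) and without AE9a-Ddit4+/+ replicate 2. Signs turned for genes near 0. Gata1 ran from -0.22 to 0.01 on leaving out a library and was 0.23 minus the median of its chromosome. Fli1 was -0.00 with library totals alone and -0.16 to 0.41 on leaving out a library. Nfe2 was -0.04 with library totals alone, -0.00 without a filter, -0.31 to 0.98 on leaving out a library and -0.36 minus the median of its chromosome. The causes were not tested.

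Of all genes tested, 5535 passed in the main fit, 3560 higher and 1975 lower. With at least 10 counts in every library, which leaves fewer genes tested, 2341 were higher. At an adjusted p below 0.01, 2676 passed, 1964 higher and 712 lower. Leaving out a library gave 1089 to 2078 lower genes, with 1168 without AE9a-Ddit4+/+ replicate 1, 1089 without AE9a-Ddit4+/+ replicate 3 and 1157 without AE9a-Ddit4-/- replicate 1. The Fli1/Klf1 log2 ratio differed by 5.30, and by 5.86 with 0.1 CPM added.

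Replicate numbers did not pair the libraries (correlations of deviations -0.165, -0.194 and -0.0495). With them as a replicate block 2964 genes passed, 2177 higher and 787 lower, and 2949 of the 2964 were also among the 5535. No library correlated best with its own number. With the block 6 of 12 T and NK cell genes and 5 of 9 B cell genes were higher, and no neutrophil gene passed. The SE of the 10 genes ran from 0.20 to 0.55, and the fewest counts, 26 to 92, lay behind Klf1 in AE9a-Ddit4-/-.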

Other observations

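The nearest tested coding genes on each side of the 10 factors were also read, and 5 of these 20 passed the threshold, against 30.1% of all genes tested. Beside Tal1, whose groups overlapped, both neighbours differed. Pdzk1ip1, a membrane protein gene 17.0 kb after it, had at most 11 counts in a wild-type library and 35.6 CPM in AE9a-Ddit4-/-, at least 194-fold higher against 12 counts per library (adjusted p = 0.000630 by edgeR, past the threshold in all 13 alternatives that tested it). Stil, a centriole gene 13.2 kb before it, was lower at 89.3 and 36.1 CPM (log2 fold change -1.31, adjusted p = 0.0341, past the threshold in 8 of 14).

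Near 2 of the genes that fell, a neighbour was lower as well. Gcdh, 8.01 kb from Klf1, was at 24.8 and 9.91 CPM (-1.32, adjusted p = 0.0143, past the threshold in 10 of 14 alternatives), whereas Dnase2a, 3.27 kb away on the other side, did not pass (-0.36, adjusted p = 0.311). Gtf3c5, 25.7 kb from Gfi1b, was at 48.0 CPM in AE9a-Ddit4+/+ and 20.0 CPM in AE9a-Ddit4-/- (-1.26, adjusted p = 0.0115, past the threshold in 14 of 14). Hdac6, 11.4 kb from Gata1, was at 13.1 and 24.7 CPM (0.91, adjusted p = 0.0222, past the threshold in 9 of 14). The neighbours of Gata2, Rpn1 (0.03, adjusted p = 0.960) and Eefsec (-0.66, adjusted p = 0.213), and those of Lmo2, Caprin1 (-0.07, adjusted p = 0.829) and Fbxo3 (-0.05, adjusted p = 0.882), did not pass. Distances are between gene ends on GRCm38.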
